A study of Mus musculus with 8 samples.

Results

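Expression of 8 genes of the gonad primordium and the coelomic epithelium was followed in caudal urogenital ridges dissected from E10.75 mouse embryos. The genes were Nr5a1, Gata4, Lhx9, Lhx2, Nr0b1, Star, Upk3b and Msln. They were taken by name from the probe sets with exactly 1 gene symbol, with the brightest one kept for each gene, and all 8 were found among the 19356 genes on the array. Each of the 8 had a single probe set of that kind. RNA came from 4 embryonic samples lacking Sox11 (Sox11-/-) and from 4 wildtype samples, all from untreated mice on a mixed genetic background. The labels call them independent replicates and do not say whether a replicate was 1 embryo or several. The p-values thus set a genotype difference against the spread between samples, which may not be that between embryos.

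The gonad arises as a thickening of the coelomic epithelium, the cell layer that lines the body cavity, on the inner face of the urogenital ridge. In mice GATA4 acts at the start of this thickening, and NR5A1 (steroidogenic factor 1), LHX9 and WT1 are needed for the gonad to form and persist. Part of the same epithelium becomes the adrenal cortex, and other parts become mesothelium, which carries uroplakin 3B and mesothelin. The dissected piece can thus hold gonadal and coelomic cells beside the nephric duct and the mesenchyme of the future kidney. In bulk RNA, fewer cells of a type and less RNA per cell cannot be told apart.

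Array values are log2 signals after robust multi-array averaging (RMA), which brings all arrays to nearly the same distribution, with array medians between 7.29 and 7.31. Differences are log2 values, knockout minus wild type, and tests are limma's, with p-values adjusted over all genes by the Benjamini-Hochberg method and a threshold of 0.05. Of all 19356 genes, 279 passed, or 1.44%, and the groups did not overlap for 10.5%. Sox11, the targeted gene, lay at 9.24, 9.13, 8.93 and 9.12 on knockout replicates 1 to 4, against 11.76, 11.81, 11.72 and 11.86 on wild type replicates 1 to 4. The Y-linked genes Eif2s3y, Kdm5d and Uty averaged 9.84 to 10.06 on knockout replicates 3 and 4 and wild type replicate 1, and 5.31 to 5.58 on the other arrays. Probes differ in how strongly they bind, so signals are compared between arrays and not between genes. The mean signals of Lhx9 and Upk3b lay above the median of all genes and those of Gata4 and Nr0b1 between the 25th percentile and the median. Nr5a1, Lhx2, Star and Msln lay below the 25th percentile, where RMA signals understate differences.

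None of the 8 genes passed the test, and for none did the knockout arrays lie wholly to 1 side of the wild type arrays. At an unadjusted p under 0.05, which 16.7% of all genes reached, there was 1 of the 8 (Msln, also without moderation), and after adjustment a linear model without moderation called 0. Over all genes 0.362% passed as higher and 1.08% as lower in knockout, 4.04% lay wholly above and 6.47% wholly below wild type, and an unadjusted p under 0.05 was reached by 7.29% as higher and 9.38% as lower. The differences ran from -0.25 (Lhx9) to 0.20 (Msln), with 5 genes above 0 and 3 below and a median of 0.08, against -0.0005 over all genes. The spread between arrays of the same genotype was wide for the gonadal transcription factors, and it was shared: Nr5a1, Gata4, Lhx9, Nr0b1 and Upk3b were each lowest among the knockout arrays on replicate 2 and lowest among the wild type arrays on replicate 1.

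The RefSeq promoter table (GRCm38.p6, 250 bases before to 50 after the transcript start) held 4 of the 8 genes. Those of Lhx9, Nr0b1 and Upk3b are shown because these 3 were each lowest on the same arrays, knockout replicate 2 and wild type replicate 1. They were searched on both strands for short strings of letters. The half-site of NR5A receptors was taken as AAGGTCA. For GATA factors the strings AGATAA and AGATAG were searched. Counted with them as GATA matches was the variant TGATAA. The last GATA variant searched was TGATAG. The core bound by LIM homeodomain factors was taken as TAATTA. For SOX factors the string ACAAAG was searched, together with its variant ACAATG. Capitals mark matches on either strand, and the strings do not overlap here.
Lhx9, chr1:138842395-138842694, minus strand: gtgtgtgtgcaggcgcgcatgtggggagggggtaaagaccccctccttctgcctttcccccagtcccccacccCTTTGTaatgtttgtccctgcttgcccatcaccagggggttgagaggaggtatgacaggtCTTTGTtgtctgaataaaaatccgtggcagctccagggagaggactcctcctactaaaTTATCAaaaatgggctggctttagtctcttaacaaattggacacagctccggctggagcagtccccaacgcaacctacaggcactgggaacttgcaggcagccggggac
Nr0b1, chrX:86191525-86191824, plus strand: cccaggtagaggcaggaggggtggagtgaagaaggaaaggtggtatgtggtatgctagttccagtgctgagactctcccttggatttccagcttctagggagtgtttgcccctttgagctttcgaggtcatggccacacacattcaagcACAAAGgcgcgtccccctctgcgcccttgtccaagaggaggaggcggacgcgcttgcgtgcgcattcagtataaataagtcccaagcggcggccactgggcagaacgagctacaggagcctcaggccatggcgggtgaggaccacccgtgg
Upk3b, chr5:136038246-136038545, plus strand: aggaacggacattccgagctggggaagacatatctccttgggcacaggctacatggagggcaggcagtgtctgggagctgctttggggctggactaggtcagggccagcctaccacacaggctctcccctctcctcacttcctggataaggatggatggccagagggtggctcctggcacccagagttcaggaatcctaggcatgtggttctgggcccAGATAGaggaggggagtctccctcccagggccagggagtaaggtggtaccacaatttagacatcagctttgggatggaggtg
The Lhx9 promoter held 2 SOX matches and 1 GATA match, that of Nr0b1 held 1 SOX match, and that of Upk3b held 1 GATA match. A SOX match was present in 28.6% and a GATA match in 29.8% of the 32851 promoters in the table. No half-site of NR5A receptors or LIM core was found in these 3 windows, and they occur in 4.72% and 5.29% of promoters. The 2 Lhx2 promoters in the table held none of the 4.

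Lhx9 encodes a LIM homeodomain factor without which the mouse gonad does not form. Its log2 signal was 8.84, 6.26, 7.66 and 8.80 on knockout replicates 1 to 4, against 7.49, 7.86, 8.90 and 8.32 on wild type replicates 1 to 4. Knockout replicate 2 lay below every other array, while knockout replicates 1 and 4 lay close to wild type replicate 3, the highest. The means were 7.89 ± 1.22 in knockout and 8.14 ± 0.61 in wild type ridges (SD, n = 4 each), a difference of -0.25 (SE 0.52, 95% interval -1.40 to 0.89, limma adjusted p = 0.836). The pooled SD within genotype, 0.96, was exceeded by 13 of 19356 genes, where the median gene had 0.12. Without knockout replicate 2 the difference was 0.29 (limma adjusted p = 0.705).

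Gata4 encodes a zinc finger factor of the early genital ridge. It gave 7.98, 6.52, 7.26 and 7.97 on knockout replicates 1 to 4, against 7.0, 7.85, 8.07 and 7.68 on wild type replicates 1 to 4. The groups overlapped, with knockout replicate 2 lowest and wild type replicate 3 highest. Means were 7.43 ± 0.69 in knockout and 7.65 ± 0.46 in wild type ridges (SD, n = 4 each), and the difference was -0.22 (SE 0.32, 95% interval -0.93 to 0.49, limma adjusted p = 0.766). Without knockout replicate 2 it was 0.09 (limma adjusted p = 0.887). The SD within genotype, 0.59, was exceeded by 71 genes.

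Nr5a1 encodes the nuclear receptor that switches on steroidogenic genes in gonad and adrenal. Its low signal was 6.24, 5.74, 6.01 and 6.39 on knockout replicates 1 to 4, against 5.92, 5.95, 6.24 and 6.42 on wild type replicates 1 to 4. Each genotype had a higher and a lower pair of arrays, and the pairs of the genotypes lay near each other. The means of 6.10 ± 0.28 in knockout and 6.13 ± 0.24 in wild type ridges (SD, n = 4 each) differed by -0.04 (SE 0.15, limma adjusted p = 0.921), with a 95% interval of 0.773- to 1.23-fold, and array weights turned the difference to 0.03.

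Nr0b1, also known as Dax1, encodes a nuclear receptor without a DNA-binding domain that holds NR5A1 in check. It gave 6.48, 6.0, 6.09 and 6.66 on knockout replicates 1 to 4, against 6.15, 6.20, 6.35 and 6.41 on wild type replicates 1 to 4. The knockout arrays enclosed the wild type arrays, with replicates 1 and 4 above all of them and replicates 2 and 3 below. The difference was 0.03 (SE 0.14, 95% interval -0.27 to 0.34, limma adjusted p = 0.930), and a further quantile normalization turned it to -0.02. Its SD was 0.31 over the knockout and 0.12 over the wild type arrays. The gene lies on the X chromosome, and the 2 knockout arrays with Y-linked signal were at 6.09 and 6.66.

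Star encodes the protein that carries cholesterol into mitochondria for steroid synthesis and is a target of NR5A1. Its low signal was 5.92, 5.77, 5.79 and 6.04 on knockout replicates 1 to 4, against 5.73, 5.88, 5.73 and 5.64 on wild type replicates 1 to 4. The arrays spanned 0.40 in all, and the groups overlapped. The difference was 0.13 (SE 0.08, 95% interval -0.05 to 0.32, limma adjusted p = 0.432).

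Lhx2 is the closest relative of Lhx9. Its low signal was 6.02, 5.90, 6.11 and 6.01 on knockout replicates 1 to 4, against 5.86, 6.03, 5.82 and 5.67 on wild type replicates 1 to 4. The highest array was knockout replicate 3 and the lowest wild type replicate 4, an order that Lhx9 did not follow. For both genes knockout replicate 2 was the lowest knockout array. The Lhx2 arrays spanned 0.44 in all. The difference was 0.17 (SE 0.08, 95% interval -0.02 to 0.35, limma adjusted p = 0.354), and its SD within genotype of 0.12 was that of a median gene.

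Upk3b encodes a uroplakin of urothelium and mesothelium. It had 9.77, 8.98, 9.59 and 9.73 on knockout replicates 1 to 4, against 8.87, 9.39, 9.64 and 9.53 on wild type replicates 1 to 4. In each genotype 1 array lay well below the other 3, knockout replicate 2 and wild type replicate 1. Means were 9.52 ± 0.37 in knockout and 9.36 ± 0.34 in wild type ridges (SD, n = 4 each), a difference of 0.16 (SE 0.20, 95% interval -0.28 to 0.60, limma adjusted p = 0.715). Leaving out wild type replicate 1 brought it to -0.003 (limma adjusted p = 0.995).

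Msln encodes mesothelin, a surface protein of mesothelial cells tethered to the membrane by a lipid anchor. It gave 6.30, 6.05, 6.16 and 6.34 on knockout replicates 1 to 4, against 6.05, 6.01, 5.90 and 6.10 on wild type replicates 1 to 4. Knockout replicates 1, 3 and 4 lay above all wild type arrays and knockout replicate 2 among them. The difference of 0.20 (SE 0.08) had an unadjusted p of 0.0351 and a limma adjusted p of 0.258, and adjusted p-values ran from 0.172 to 0.510 over its alternatives.

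**Figure D1:**
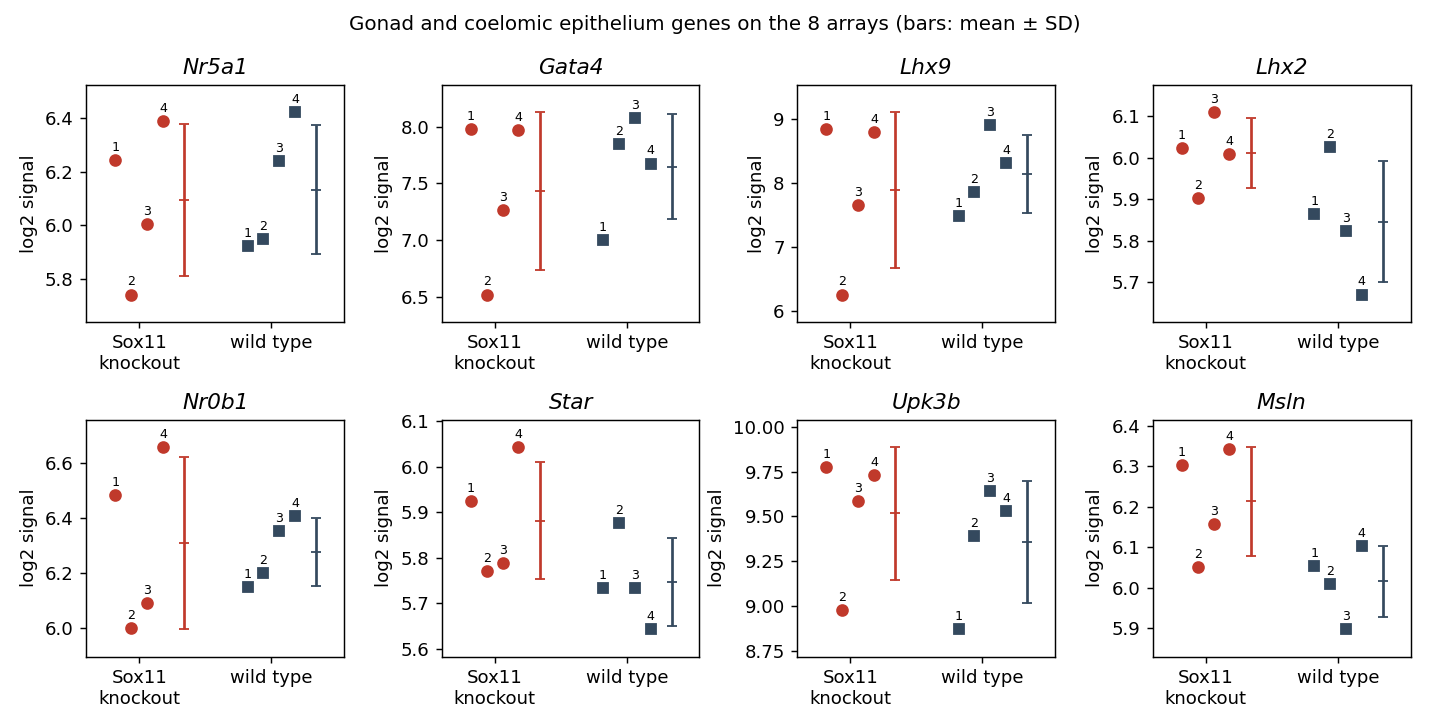
Log2 signal of each of the 8 genes (vertical axes, separate scales) on the 4 Sox11 knockout arrays (red circles) and the 4 wild type arrays (dark squares), numbered by replicate, with the mean and SD at the side. The groups overlap in every panel, and knockout replicate 2 is the lowest knockout array in all 8.

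**Figure D2:**
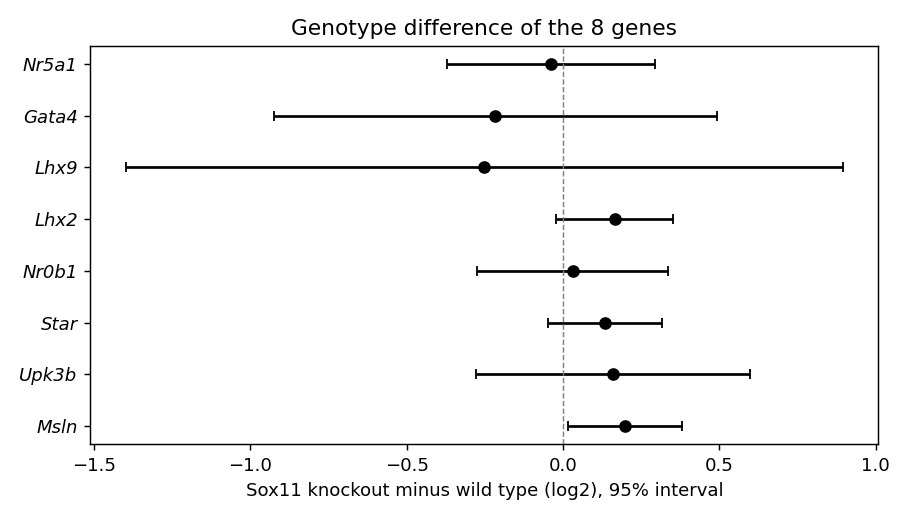
Log2 difference of each gene, Sox11 knockout minus wild type (horizontal axis), with limma's 95% interval. Intervals are widest for Lhx9 (-1.40 to 0.89) and Gata4 (-0.93 to 0.49), and that of Msln (0.02 to 0.38) does not include 0 before adjustment for the number of genes.

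The intervals set what these arrays could show. For Lhx9 they allowed a knockout level from 0.380- to 1.86-fold of wild type, and for Gata4 from 0.527- to 1.41-fold. They were narrower for Nr0b1 (0.827- to 1.26-fold), Upk3b (0.825- to 1.51-fold), Star (0.968- to 1.24-fold) and Lhx2 (0.985- to 1.28-fold). For Star and Lhx2 the narrow interval goes with a signal near the low end of the range.

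Deviations from the mean of the own genotype were compared between the 8 genes over the 8 arrays, in 28 pairs. This comparison was chosen after the shared order of arrays had been seen, so the correlations are given as a description, with no test. Pearson's r was positive for 25 of the 28 pairs, against 50% of all pairs of genes on the array, and at least 0.9 for 4 of the 28, against 0.381% of all pairs of genes.

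Those 4 were Lhx9 and Upk3b (r = 0.91, Spearman's rho = 0.93), Gata4 and Lhx9 (r = 0.95, rho = 0.93), Gata4 and Upk3b (r = 0.94, rho = 0.86) and Nr5a1 and Nr0b1, the receptor and its partner (r = 0.92, rho = 0.91). Then the 2 arrays farthest from the median of the first gene were left out, which differed by pair. Without knockout replicate 2 and wild type replicate 1, r was 0.87 for Gata4 and Lhx9 and 0.72 for Gata4 and Upk3b. Wild type replicate 1 stayed in for the others. There r was 0.80 for Lhx9 and Upk3b without knockout replicates 1 and 2, and 0.85 for Nr5a1 and Nr0b1 without knockout replicates 2 and 4.

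Lhx2 had r of 0.07 with Lhx9 and -0.32 with Nr5a1. Msln and Star had positive r with each of Nr5a1, Gata4, Lhx9, Nr0b1 and Upk3b, between 0.27 and 0.75. All arrays were normalized together, and points of a pair share their array.

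**Figure D3:**
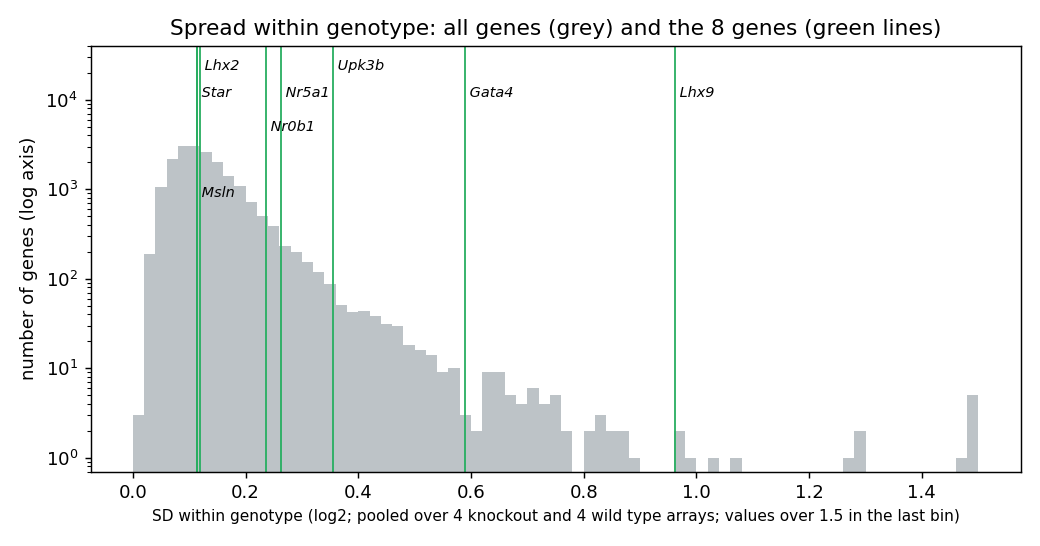
Number of genes (vertical log axis) by their SD within genotype on the log2 scale (horizontal axis), pooled over the 4 Sox11 knockout and the 4 wild type arrays, with the 8 genes as green lines. Lhx9 (0.96), Gata4 (0.59) and Upk3b (0.35) stand in the upper tail, while Star, Msln and Lhx2 (0.11 to 0.12) sit near the median of all genes.

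Knockout replicate 2 was the lowest knockout array for 8 of the 8 genes, against 28.3% of all genes. Wild type replicate 1 was the lowest wild type array for 5 of the 8 (Nr5a1, Gata4, Lhx9, Nr0b1 and Upk3b), against 25.3% of all genes. In the list of coelomic epithelium and mesothelium, 12 of 18 genes were lowest on knockout replicate 2 and 7 of 18 on wild type replicate 1, and 6 on both, against 6.3% of all genes. The epithelial genes Krt8, Krt19 and Cdh1 of that list were highest on both. Knockout replicate 2 was also lowest for 6 of 12 dorsal neural tube and neuron genes and 7 of 14 Sertoli and granulosa genes. It was lowest for 4 of 9 nephric duct genes. Low values on that array alone were thus not particular to the 8 genes and the coelomic list. Lowest on both arrays were 1 of 12, 3 of 14 and 1 of 9 genes of these 3 lists. The list of genes that build the gonad ridge was near the share of all genes on knockout replicate 2, with 5 of 17 lowest there. It had 7 of 17 lowest on wild type replicate 1 and 4 on both. The same list had 5 of 17 highest on knockout replicate 2, 6 highest on wild type replicate 1 and 2 on both.

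Of all genes 27.7% were highest among the knockout arrays on replicate 2, 21.5% were highest among the wild type arrays on replicate 1, and 5.23% were highest on both. In the list of liver and gut endoderm these counts were 6, 6 and 4 of 12. Knockout replicate 2 was also highest for 8 of 16 germ cell genes and 6 of 12 limb bud and flank genes. The share on that array alone was thus not particular to endoderm. Of the 16 germ cell genes, 4 were highest on wild type replicate 1 and 3 on both arrays. Of the 12 limb bud and flank genes, 2 were highest on wild type replicate 1 and 2 on both. These shares were lower than those of the endoderm list.

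The next genes were chosen after their values were seen. Amhr2, the receptor of anti-Müllerian hormone in gonad and coelomic epithelium, was at 7.61, 5.96, 6.98 and 8.09 on knockout replicates 1 to 4, against 6.33, 6.67, 7.86 and 7.54 on wild type replicates 1 to 4. Bnc1, a zinc finger factor of mesothelium, was at 8.85, 7.89, 8.66 and 8.67 on knockout replicates 1 to 4, against 8.28, 8.73, 9.18 and 8.70 on wild type replicates 1 to 4. Both had the lowest array of each genotype where Lhx9 had it.

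Shh encodes the hedgehog ligand that the endoderm of hindgut and cloaca secretes, and the floor plate and limb bud also make it. Its signal was 6.52, 8.58, 6.51 and 6.64 on knockout replicates 1 to 4, against 8.5, 6.52, 6.34 and 6.99 on wild type replicates 1 to 4. Foxa1, a forkhead factor of endoderm, was at 6.61, 7.91, 6.63 and 6.66 on knockout replicates 1 to 4, against 7.66, 6.73, 6.50 and 6.90 on wild type replicates 1 to 4. For both, knockout replicate 2 and wild type replicate 1 were the 2 highest arrays of the 8. In the list of liver and gut endoderm, Afp, Ttr and Cldn6 were also highest in each genotype on these arrays. The signals of Afp and Ttr lay below the 25th percentile. Others of that list did not follow Foxa1 on both arrays. Its relative Foxa2 was at 6.43, 6.06, 6.39 and 6.51 on knockout replicates 1 to 4, lowest on replicate 2, against 6.54, 6.50, 6.12 and 6.29 on wild type replicates 1 to 4. Epcam, an adhesion gene of epithelia, was at 8.93 on knockout replicate 2, within the 8.93 to 9.18 of the knockout arrays. Among the wild type arrays Epcam was highest on replicate 1 (9.15). Sox17 was highest on knockout replicate 1 and wild type replicate 2.

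Upk1a, a uroplakin of bladder epithelium, was likewise highest on knockout replicate 2 (7.75) and wild type replicate 1 (7.51), with 6.68 to 6.71 on the other knockout arrays and 6.70 to 6.96 on the other wild type arrays. So were Isl1, a homeodomain factor of mesenchyme around the cloaca and of motor neurons, at 11.03 and 10.84, and Hoxd13, a homeobox gene of the most caudal tissues, at 10.14 and 10.44. Tbx4, Pitx1 and Hoxd11, other genes of the limb bud and mesenchyme lists, did not follow on both arrays. Among the knockout arrays they were highest on replicate 2, at 9.16, 8.24 and 10.62. Among the wild type arrays they were lowest on replicate 1, at 6.87, 6.61 and 10.59. Knockout replicate 2 and wild type replicate 1 were of opposite genotype and opposite Y-linked signal. The part of these tissues in the values of the 8 genes was not tested.

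**Figure D4:**
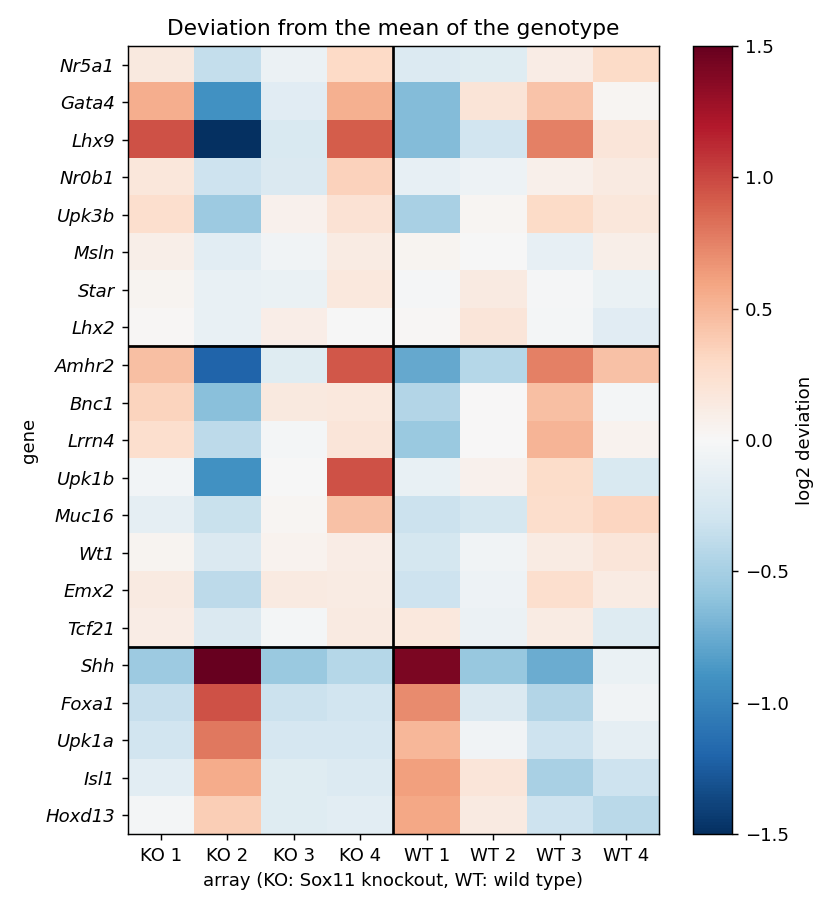
Deviation of each gene (rows) on each array (columns) from the mean of its genotype on the log2 scale, red above and blue below. The 8 genes are at the top, other gonad and coelomic genes in the middle and genes of endoderm and caudal tissue at the bottom. Genes in the middle and at the bottom were chosen after their values were seen. Left out are Tbx4, Pitx1 and Hoxd11, highest of the knockout arrays on replicate 2 but lowest of the wild type arrays on replicate 1. Also left out are the coelomic list genes Krt8, Krt19 and Cdh1, highest on both arrays named next, and Foxa2 and Sox17, which did not follow Foxa1. Knockout replicate 2 and wild type replicate 1 are low for Lhx9, Gata4 and Upk3b and high for Shh and Foxa1, and the color scale ends at 1.5 in either direction, which Shh on knockout replicate 2 and Lhx9 on knockout replicate 2 pass.

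Without knockout replicate 2 and wild type replicate 1, a choice made after seeing the data, 0 of the 8 genes passed. Their differences were then 0.08 for Lhx9, 0.01 for Nr5a1 and 0.26 for Msln, and 135 genes passed in all.

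Outside the 8 genes, those most alike in their deviations over the 8 arrays were sought among 9676 genes above the median level. They were picked as the highest of many and carry no test. Nearest to Nr5a1 were Tspan4, a tetraspanin (r = 0.96), Thsd7a (r = 0.95) and Tbc1d8 (r = 0.95), with rho from 0.93 to 0.95. Nearest to Gata4 were Eid1 (r = 0.98), the sodium pump subunit gene Atp1b2 (r = 0.96) and Sptssa, a subunit of serine palmitoyltransferase (r = 0.95), with rho from 0.90 to 0.95. Nearest to Upk3b were the natriuretic peptide receptor gene Npr1 (r = 0.98), the myosin gene Myo1d (r = 0.98) and the adhesion gene L1cam (r = 0.97), with rho from 0.83 to 0.93.

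Of genes known to build the gonad ridge, 17 were measured. Cbx2, a Polycomb subunit needed in mice for testis formation and for Nr5a1 expression, was lower in knockout, 0 were higher and 16 did not pass. It gave 10.16, 10.37, 10.29 and 10.20 on knockout replicates 1 to 4, against 10.68, 10.755, 10.752 and 10.77 on wild type replicates 1 to 4, with no overlap. The difference of -0.48 (SE 0.07, limma adjusted p = 0.00648) passed under each of 20 alternatives (adjusted p up to 0.0401). The list's median was -0.01. Of all genes 1.08% passed as lower.

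Gadd45g, a stress-response gene that in mice acts upstream of Sry, was at -0.26 (SE 0.07, limma adjusted p = 0.102), and Map2k6, a kinase of the p38 pathway, at -0.23 (SE 0.08, limma adjusted p = 0.187). Both had every knockout array below every wild type array. Wt1, the zinc finger factor of kidney and gonad, was at 10.73, 10.47, 10.74 and 10.79 on knockout replicates 1 to 4, against 10.62, 10.83, 11.01 and 11.07 on wild type replicates 1 to 4, which overlapped. The Sry probe set read 7.65, 7.58, 7.18 and 8.10 on knockout replicates 1 to 4, against 7.28, 7.25, 7.22 and 7.26 on wild type replicates 1 to 4. It was higher on knockout replicates 1 and 2, which had no Y-linked signal, than on knockout replicate 3, which had it, so its values do not follow the Y chromosome.

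Coelomic epithelium and mesothelium genes had 1 of 18 higher (against 0.362% of all genes), 0 lower and 17 that did not pass. Their median was 0.06. Dpp4, a membrane-bound peptidase, rose to 7.89, 7.94, 8.10 and 7.95 on knockout replicates 1 to 4, against 7.39, 7.20, 7.42 and 7.40 on wild type replicates 1 to 4. The groups did not overlap, and the difference of 0.62 (SE 0.08, limma adjusted p = 0.00319) passed under each of 20 alternatives (adjusted p up to 0.0446). It did not follow the dip of Lhx9 on knockout replicate 2. Krt18, a keratin of simple epithelia, and Tcf21, a bHLH factor of coelomic mesenchyme, were at 0.19 and 0.23 (limma adjusted p = 0.252 and 0.289). Lrrn4, a leucine-rich repeat protein of mesothelium, was at 8.60, 7.96, 8.32 and 8.53 on knockout replicates 1 to 4, against 7.86, 8.42, 8.92 and 8.47 on wild type replicates 1 to 4, again lowest on knockout replicate 2 and wild type replicate 1.

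Genes of steroid synthesis and the adrenal cortex, measured for 10 of 16 listed, had 0 past the threshold and a median of 0.04. At an unadjusted p under 0.05, which 16.7% of all genes reached, there was 1 of the 10. That gene was Mc2r, the receptor of the pituitary hormone ACTH, at 8.89, 9.02, 8.61 and 8.59 on knockout replicates 1 to 4, against 8.38, 8.28, 8.26 and 8.41 on wild type replicates 1 to 4. All knockout arrays lay above all wild type arrays, with a difference of 0.45 (SE 0.10, limma adjusted p = 0.0635), and 2 of 20 alternatives brought it past the threshold. Cyp11a1, the first enzyme of steroid synthesis, ranged from 5.23 to 6.01 on the knockout arrays and from 5.30 to 5.62 on the wild type arrays (limma adjusted p = 0.518).

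Sertoli and granulosa lineage genes had 1 of 14 higher (against 0.362% of all genes), 0 lower and 13 that did not pass. Their median was 0.02. Lgr5, a receptor of R-spondins, rose to 8.16, 7.97, 8.33 and 8.11 on knockout replicates 1 to 4, against 7.68, 7.51, 7.79 and 7.53 on wild type replicates 1 to 4. The difference was 0.51 (SE 0.09, limma adjusted p = 0.0265), and the groups did not overlap. It missed the threshold without knockout replicate 1, 3 or 4 or wild type replicate 1, 2 or 4 (adjusted p up to 0.0823), without moderation (0.109) and with Y-linked signal added to the model (0.0505). Irx3 and Ptgds, which makes prostaglandin D2, were at 0.40 and 0.16 (limma adjusted p = 0.202 and 0.273).

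Primordial germ cell genes had 0 of 16 past the threshold and a median of -0.02. At an unadjusted p under 0.05, 1 of the 16 was higher and 1 lower, against 7.29% and 9.38% of all genes. Those were Ifitm3, a membrane protein of early germ cells and other cells, at 0.29, and Alpl, the alkaline phosphatase that marks germ cells, at -0.32 (limma adjusted p = 0.209 and 0.247). Nanos3, needed for germ cell survival in mice, ranged from 6.03 to 6.63 on the knockout arrays and from 6.46 to 6.68 on the wild type arrays.

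Relatives of the 8 genes (other GATA, LIM, NR5A, NR0B, STARD, uroplakin and mesothelin family genes) had 0 of 30 past the threshold and a median of 0.001. At an unadjusted p under 0.05, 5 of the 30 were higher and 2 lower, against 7.29% and 9.38% of all genes. Lhx1 and Gata3, factors of the nephric duct, were at 0.42 and 0.25 (limma adjusted p = 0.0577 and 0.0845), and either passed under at least 1 alternative. Mslnl, the mesothelin-like gene, was at 0.35 (SE 0.09, limma adjusted p = 0.0890), at 6.50, 6.37, 6.51 and 6.67 on knockout replicates 1 to 4, against 6.36, 6.14, 6.11 and 6.03 on wild type replicates 1 to 4. Stard4, a cholesterol carrier, was at 0.30 (limma adjusted p = 0.129). The groups did not overlap in 6 of the 30 relatives, against 10.5% of all genes: in these 4, in Upk2, a uroplakin gene, at 0.18, and in Lmx1b, a LIM homeodomain gene, at -0.18 (limma adjusted p = 0.202 and 0.185).

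**Figure D5:**
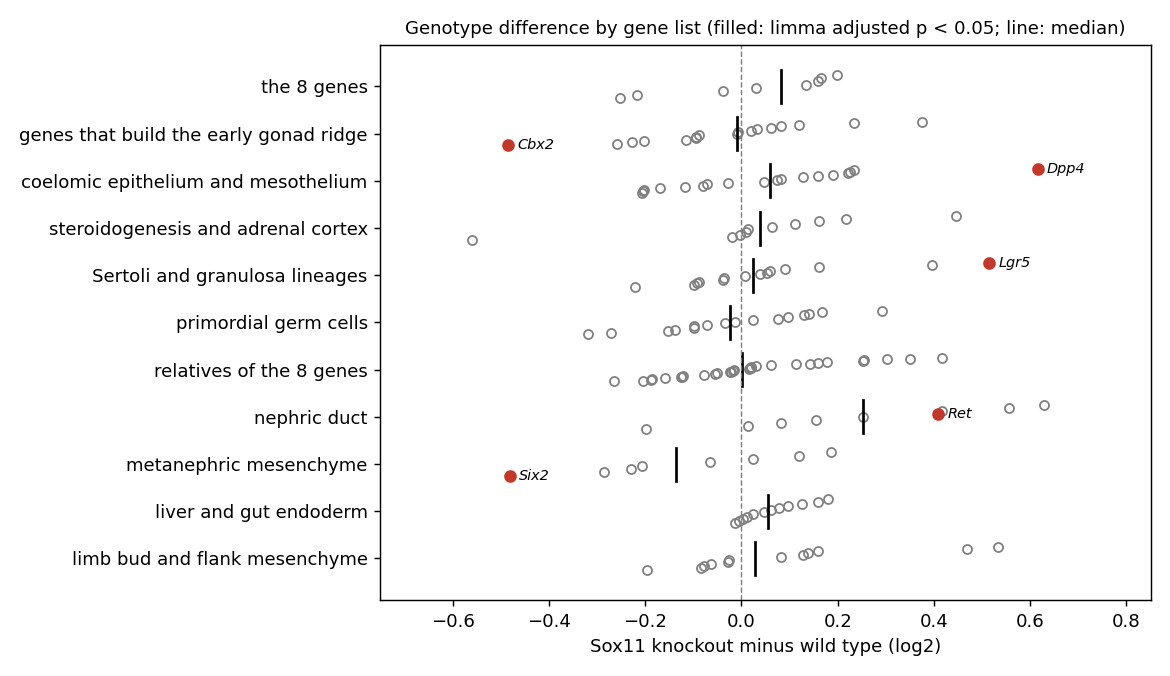
Log2 difference of each listed gene, Sox11 knockout minus wild type (horizontal axis), for the 8 genes and 10 other lists (rows), with filled points for genes past limma's adjusted threshold and a line at the median of the list. None of the 8 genes passed, while Cbx2 (-0.48), Dpp4 (0.62) and Lgr5 (0.51) did in lists of gonad, coelomic epithelium and supporting cells. Ret (0.41) of the nephric duct list and Six2 (-0.48) of the metanephric mesenchyme list also passed.

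Markers of other cells in the dissected piece were set beside these. The mean level of the nephric duct list lay between 9.27 and 9.43 on knockout arrays and between 9.05 and 9.24 on wild type arrays, with 1 of 9 genes higher and 0 lower. That was Ret, the receptor through which the duct responds to GDNF, at 0.41 (limma adjusted p = 0.0220). At an unadjusted p under 0.05, 5 of the 9 were higher, against 7.29% of all genes (Ret, Lhx1, Calb1, Gata3 and Cdh16), and the groups did not overlap for 4. The metanephric mesenchyme list lay between 9.84 and 9.96 on knockout and between 9.92 and 10.09 on wild type arrays, with 1 of 8 lower and 0 higher. That was Six2, which keeps nephron progenitors from differentiating, at -0.48 (limma adjusted p = 0.0437). At an unadjusted p under 0.05, 4 of the 8 were lower, against 9.38% of all genes (Six2, Eya1, Hoxd11 and Sall1), and the groups did not overlap for 2. The limb bud and flank list ranged from 7.54 to 8.22 on knockout and from 7.53 to 8.01 on wild type arrays, with 0 of 12 past limma's threshold and 1 higher at an unadjusted p under 0.05. The liver and gut endoderm list ranged from 6.88 to 7.14 on knockout and from 6.80 to 7.06 on wild type arrays, with 0 of 12 past either. The dorsal neural tube and neuron list ranged from 6.90 to 6.98 on knockout and from 6.83 to 7.02 on wild type arrays, with 0 of 12 past the threshold and 2 lower at an unadjusted p under 0.05.

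The heart muscle list ranged from 6.49 to 6.73 on knockout and from 6.28 to 6.59 on wild type arrays. Of its 8 genes, 0 passed limma's threshold and 1 was higher at an unadjusted p under 0.05, against 7.29% of all genes. The endothelium list ranged from 9.62 to 9.89 on knockout and from 9.49 to 9.78 on wild type arrays, with 0 of 10 past either. The primitive blood list ranged from 8.52 to 8.78 on knockout and from 8.47 to 9.05 on wild type arrays. Of its 9 genes, 0 passed the threshold and 3 were lower at an unadjusted p under 0.05, against 9.38% of all genes. The part of these cells in the genotype differences given above was not tested.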

How the data were processed

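Arrays were hybridised with amplified, biotin-labelled RNA after ribosomal RNA reduction, per the labels' protocols. The authors deposited log2 signals of 27478 probe sets over 8 arrays. RMA and Partek are named, per the submitters' processing notes, and the sources used here give neither versions nor filters. Deposited values ran from 4.30 to 14.62, from which the log2 scale was read. Arrays carry no count of molecules, and their number limits the precision.

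Gene names came from the annotation of the platform, with symbols updated through RefSeq (GRCm38.p6). Of the probe sets 21103 had exactly 1 symbol, and the one with the highest mean was kept per gene (19356 genes, no filter on level). limma 3.58.1 in R 4.3.3 (lmFit, eBayes, genotype as the only term, two-sided) was fitted over all genes and tested on simulated data. Figures were drawn with matplotlib 3.10.9.

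The members and lists were chosen with earlier results of these data known. Genes to name were the 8 genes, Sox11, in each list up to 4 with the lowest p and up to 2 with the highest level (of which the text gives a part), every listed gene past the threshold, and the 3 most alike to each of Nr5a1, Gata4 and Upk3b. Genes outside this rule are Shh, Foxa1, Foxa2, Upk1a, Upk2, Lmx1b, Krt19, Cdh1, Cdh16, Isl1, Hoxd13, Emx2, Amhr2, Bnc1, Lrrn4 and Wt1, chosen after their values were seen. The replicate numbers are not said to pair samples. Same-numbered arrays correlated in their deviations at -0.165, 0.09, -0.04 and 0.062, so no pairing was used. Alternatives were other normalizations, level filters, probe set rules, moderation or weights of arrays, a replicate block, Y-linked signal in the model, and leaving out arrays.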

Additional observations from a re-analysis of the deposited data

Results flagged for a closer look

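In groups of 4 arrays, 1 array lay far from the other 3 for 17 of the 174 groups of 87 named genes that were looked at. The critical value of Dixon's test for 4 values was used, which chance alone passes in about 1 of 20 groups of unselected genes. The 87 genes include Y-linked genes, genes picked for likeness and genes chosen after their values were seen. The 17 of 174 can therefore not be set against that share. None of the 17 was a group of the 8 genes. On knockout replicate 2 these were Shh at 8.58, Foxa1 at 7.91, Isl1 at 11.03 and Upk1a at 7.75, above the other knockout arrays, and Emx2 at 9.74 and Myo1d at 8.79, below them. Emx2, a homeodomain factor of the urogenital ridge, was at 10.26 to 10.28 on the other knockout arrays and at 9.75 on wild type replicate 1.

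On wild type replicate 1 Eif2s3y stood at 10.29, Kdm5d at 9.90 and Uty at 9.98, above the other wild type arrays, and Cbx2 at 10.68 and Gata3 at 9.99, below them. The others were Gadd45g at 6.77 and Stard4 at 8.63 on wild type replicate 4, Dpp4 at 7.20, the cadherin gene Cdh1 at 7.87 and Sall1 at 8.67 on wild type replicate 2, and Rhag, a blood group gene, at 7.38 on wild type replicate 3.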

How the results depend on the processing

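The count of 0 among the 8 genes held under each of 20 alternatives. Of 150 values for single genes among the 8, 137 kept their sign and 13 turned it, all of the latter in Nr5a1, Gata4, Lhx9, Nr0b1 and Upk3b. Nr0b1 was at -0.024 after a further quantile normalization and Nr5a1 at 0.028 with array weights, and without the lowest array of each genotype Nr5a1 was at 0.0091 and Lhx9 at 0.076. Leaving out single arrays gave -0.136 to 0.079 for Nr5a1, -0.433 to 0.088 for Gata4, -0.568 to 0.292 for Lhx9, -0.085 to 0.133 for Nr0b1 and -0.0027 to 0.339 for Upk3b. The filter at the 25th percentile removed Nr5a1, Lhx2, Star and Msln, and that at the median also Gata4 and Nr0b1, so these have no value there.

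The count of 279 genes over the whole table was 55 without moderation, 166 with the replicate number as a block, 151 with Y-linked signal in the model and 135 without the lowest array of each genotype, and 107 to 243 when 1 array was left out. The replicate block changed no call among the 8 genes, and 2 of 8 arrays correlated best with their own number in the other genotype. Low signal limits Nr5a1, Star, Lhx2 and Msln, and the spread between arrays limits Lhx9 and Gata4.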
